A study of Homo sapiens with 8 samples.

Results

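The genes CDKN2A, CDKN2B and MTAP stand close together on chromosome 9 and were examined as 1 locus in ATAC-seq data of the oral squamous cell carcinoma lines HSC-3 and KOSC-2. The locus was taken as chromosome 9, 21500000 to 22600000 (build hg19), and its members are all accessible regions that overlap this window of 1.1 Mb after the peaks of 8 libraries were merged wherever they shared at least 1 bp. These were 62 of the 80588 regions on chromosomes 1 to 22 and X. The groups were HSC-3 cells given 8 Gy, HSC-3 cells given 0 Gy, KOSC-2 cells given 8 Gy and KOSC-2 cells given 0 Gy, all frozen 24 hours later, with 2 libraries in each. HSC-3 is labelled radioresistant and KOSC-2 radiosensitive, so 1 line stands for each class and the class and the line cannot be told apart. Nothing in the labels ties the 2 libraries of a group to separate cultures, so p-values measure the spread between these libraries only, and that spread may be technical.

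CDKN2A encodes 2 unrelated proteins from separate first exons: p16INK4a, which inhibits the cyclin D kinases CDK4 and CDK6 and so keeps the retinoblastoma protein active, and p14ARF, which inhibits MDM2 and so stabilises p53. CDKN2B encodes p15INK4b, a related inhibitor of the same kinases. MTAP, methylthioadenosine phosphorylase, recycles a by-product of polyamine synthesis into the methionine salvage pathway. The locus is known for loss in squamous carcinoma, often as a homozygous deletion that takes CDKN2A with CDKN2B and, in many tumours, MTAP. Where both copies of a stretch are gone it can give no ATAC-seq reads and no peak, whereas loss of 1 copy leaves peaks in place. The question addressed here was whether either line has a stretch without any peak in its 4 libraries where the other line has peaks.

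The RefSeq sequences around the starts of the 3 genes are shown because the regions called in every library include 1 at or near the end from which each gene is read. Each window runs from 250 bases before the start to 50 after it, 5′ to 3′ on the gene's own strand, and capitals mark GGGCGG or its reverse complement CCGCCC, the GC box. All 3 genes were found in the RefSeq table, CDKN2A with 2 starts. The coordinates are those of GRCh38.p14, another build than that of the peak lists, and were neither converted nor used to place peaks.
CDKN2A first start, GRCh38.p14 chr9:21974808-21975107, minus strand: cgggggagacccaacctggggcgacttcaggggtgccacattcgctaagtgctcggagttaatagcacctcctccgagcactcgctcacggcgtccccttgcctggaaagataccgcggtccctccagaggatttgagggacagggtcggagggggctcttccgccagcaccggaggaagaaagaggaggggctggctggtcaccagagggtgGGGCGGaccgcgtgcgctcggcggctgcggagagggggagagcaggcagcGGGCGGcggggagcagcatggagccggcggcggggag
CDKN2A second start, GRCh38.p14 chr9:21995275-21995574, minus strand: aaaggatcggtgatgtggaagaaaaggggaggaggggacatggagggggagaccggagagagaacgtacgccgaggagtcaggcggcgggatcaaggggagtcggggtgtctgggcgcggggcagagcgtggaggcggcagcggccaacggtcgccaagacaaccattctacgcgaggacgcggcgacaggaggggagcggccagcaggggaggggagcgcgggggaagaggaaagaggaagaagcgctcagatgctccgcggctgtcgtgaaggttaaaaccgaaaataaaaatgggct
CDKN2B start, GRCh38.p14 chr9:22009256-22009555, minus strand: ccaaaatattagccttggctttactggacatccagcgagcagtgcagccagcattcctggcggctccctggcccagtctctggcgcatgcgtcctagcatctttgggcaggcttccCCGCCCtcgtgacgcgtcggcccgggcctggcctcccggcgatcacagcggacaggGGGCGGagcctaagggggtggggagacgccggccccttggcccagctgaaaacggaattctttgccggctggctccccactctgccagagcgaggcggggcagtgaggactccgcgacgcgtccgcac
MTAP start, GRCh38.p14 chr9:21802386-21802685, plus strand: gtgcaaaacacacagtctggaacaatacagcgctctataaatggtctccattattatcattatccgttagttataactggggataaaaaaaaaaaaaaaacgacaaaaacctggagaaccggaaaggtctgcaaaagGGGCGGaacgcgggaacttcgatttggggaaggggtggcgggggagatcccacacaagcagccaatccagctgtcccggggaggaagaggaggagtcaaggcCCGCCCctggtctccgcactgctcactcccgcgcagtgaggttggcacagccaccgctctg
The GC content of these windows was 69.0% and 63.3% for CDKN2A, 67.3% for CDKN2B and 53.0% for MTAP, against a median of 58.7% over the 35116 RefSeq start windows of the same length. They held 26 and 28 CpG dinucleotides (CDKN2A), 25 (CDKN2B) and 15 (MTAP), against a median of 14. A GC box on either strand was found 2 times each in the first CDKN2A window, the CDKN2B window and the MTAP window and 0 times in the second CDKN2A window, while 45.0% of all windows held at least 1. The letters TATAAA, read on both strands, were found in the MTAP window and in 11.5% of all windows.

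The lists differed in length before any region was considered. HSC-3 8 Gy replicate 1 and HSC-3 0 Gy replicate 2 had 22504 and 23490 peaks on chromosomes 1 to 22 and X, whereas the other 6 lists had 38234 to 51693. Depth, read from the lowest background a library shows under its peaks, ranged from 20.2 to 64.8 reads per 10 kb, and the smallest pileup called was 5 to 9 reads. Sites with fewer reads were not detectable in these lists.

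Peaks were found across the locus in every library of both lines, with regions called in all 8 libraries in each of the CDKN2A, CDKN2B and MTAP intervals. HSC-3 libraries had 28 and 47 peaks in the window at 8 Gy (replicates 1 and 2) and 43 and 30 at 0 Gy. KOSC-2 libraries had 32 and 33 peaks at 8 Gy and 30 and 31 at 0 Gy. The 2 short HSC-3 lists gave the lowest HSC-3 values and the 2 long ones the highest of all, while the KOSC-2 libraries lay between 30 and 33. The window was dense in peaks for its size: the median window of 1.1 Mb over chromosomes 1 to 22 and X held 7 to 17 peaks, depending on the library, and 0.510 to 2.30% of windows in HSC-3 libraries and 10.8 to 19.0% in KOSC-2 libraries held at least as many as the locus.

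**Figure D1:**
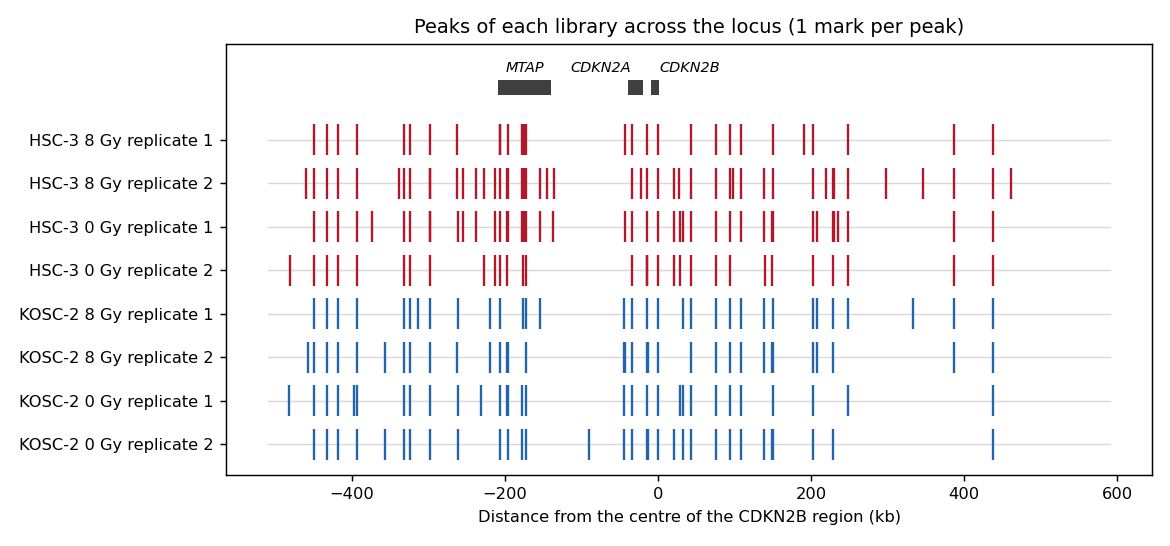
Peaks of each of the 8 libraries (rows, HSC-3 above KOSC-2; 1 mark per peak) along the locus, as distance in kb from the centre of the CDKN2B region, with the approximate gene intervals as bars at the top. Marks run through all 3 gene intervals in all 8 rows, and the rows are empty together at the right-hand end.

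Of the 62 regions, 33 were called in both lines (53.2%, against 51.8% of all merged regions), 21 in HSC-3 alone (33.9%, against 16.2%) and 8 in KOSC-2 alone (12.9%, against 32.0%). Regions called in all 8 libraries numbered 18, which is 29.0% of the locus, against 15.9% of all merged regions. None of the 62 was called in all 4 HSC-3 libraries and no KOSC-2 library, a pattern held by 0.300% of all regions, and none showed the reverse, held by 2.07%. With 62 regions, a count of 0 is near either background share and is no result about the locus. Of the 21 regions without a KOSC-2 call, 14 were called in a single HSC-3 library, and 20 were called in at least 1 of the 2 long HSC-3 lists. The counterpart of 8 regions without an HSC-3 call held none that 3 or more KOSC-2 libraries shared. For these subsets no share of all merged regions was computed, so their counts are no result about the locus. Regions called in 1 library of either line made up 32.3% of the locus, against 31.9% of all merged regions.

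MTAP was given by the rule as about 21.80 to 21.87 Mb, and 10 regions overlapped this interval once it was widened by 5 kb on each side, since its ends are rounded to 10 kb. HSC-3 libraries called 5 and 9 of the 10 at 8 Gy (replicates 1 and 2) and 8 and 5 at 0 Gy. KOSC-2 libraries called 4 and 3 at 8 Gy and 4 and 4 at 0 Gy. Every HSC-3 library thus called more of the MTAP regions than any KOSC-2 library, by 1 region at the closest approach. In HSC-3 0 Gy replicate 2 this lead rests on the region 21796726 to 21797166. That region lies below 21.80 Mb and counts only through the widening. Without it, this library would equal the highest KOSC-2 count. Peaks covered 4.91% ± 1.83 of the interval in HSC-3 and 3.17% ± 0.216 in KOSC-2 (SD, n = 4 each), and here the short HSC-3 0 Gy replicate 2 list, at 3.14%, fell within the KOSC-2 values of 2.85 to 3.32%. No test was run on the MTAP count or its coverage, and no share of all merged regions called per library was set beside the count. Regions called in HSC-3 alone are among the 10 only through HSC-3 peaks. The higher count in HSC-3 is therefore no result about the locus.

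The region at the interval's low end, 21802039 to 21803408, from which MTAP is read, was called in all 8 libraries. The fold enrichment deposited by the authors for its summit was 6.62 and 8.57 in HSC-3 at 8 Gy and 8.50 and 7.42 at 0 Gy. In KOSC-2 it was 9.31 and 9.57 at 8 Gy and 8.84 and 7.79 at 0 Gy. The lines overlap, and the value is relative to each library's own local background, so the levels are not compared between libraries. The second MTAP region called in all 8 libraries, 21836334 to 21837109, had a fold of 5.25 to 8.21 in HSC-3 and 7.07 to 10.4 in KOSC-2.

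The regions behind the higher MTAP count in HSC-3 were those that KOSC-2 libraries called seldom or not at all. Those called in HSC-3 alone belong to the interval only through HSC-3 peaks. They restate the count and give it no separate support. Both regions of the locus that 3 HSC-3 libraries and no KOSC-2 library called lay in this interval, a pattern without a computed background share. The first, 21796726 to 21797166, had a fold of 9.72 in HSC-3 8 Gy replicate 2 and of 5.94 and 8.41 in the 0 Gy replicates 1 and 2. The second, 21833444 to 21833905, had 4.12 and 5.33 in the 8 Gy replicates 1 and 2 and 4.63 in 0 Gy replicate 1. Regions 21812215 to 21813350 and 21832015 to 21832463 were called in 4 of 4 HSC-3 and 3 of 4 KOSC-2 libraries. The region 21854318 to 21855048 was called in 2 HSC-3 libraries and 1 KOSC-2 library, and the last 3 regions of the interval, from 21863466 to 21874190, in 1 HSC-3 library each and in 0 of 4 KOSC-2 libraries. Around the second of the 3-library regions the local background was high in HSC-3: it was 4.15, 10.8 and 9.97 times the lowest background of its own library in 8 Gy replicates 1 and 2 and 0 Gy replicate 1, against medians of 2.20, 2.85 and 2.59 over the same lists. At the neighbouring region 21832015 to 21832463 it was above the list median in KOSC-2 as well, at 4.46 in 8 Gy replicate 1 and 3.41 and 6.02 in 0 Gy replicates 1 and 2, against list medians of 2.24, 2.07 and 2.45.

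CDKN2A, given as 21.97 to 21.99 Mb, was overlapped by 4 regions when widened in the same way. HSC-3 libraries called 3 and 3 of them at 8 Gy and 3 and 2 at 0 Gy, and each KOSC-2 library called 3. The region inside the gene, 21974391 to 21975759, was called in all 8 libraries. Its fold was 8.45 and 10.1 in HSC-3 at 8 Gy and 8.86 and 10.9 at 0 Gy. In KOSC-2 the fold was 9.06 and 9.57 at 8 Gy and 7.90 and 9.47 at 0 Gy. It was among the stronger peaks of each list, at percentiles 89.7 to 95.1 of the HSC-3 lists and 71.1 to 77.2 of the KOSC-2 lists, ranked by −log10 p within lists of different length.

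The widest region of the locus, 21994040 to 21996069 (2030 bp), lay on the border of the CDKN2A and CDKN2B intervals and was called in all 8 libraries. In the RefSeq gene order the antisense transcript CDKN2B-AS1 (ANRIL) is listed between CDKN2A and CDKN2B, which gives its order and not its extent. The p14ARF start is the one on this side of CDKN2A. The region's tallest summit had a fold of 4.65 and 7.48 in HSC-3 at 8 Gy and 5.52 and 5.29 at 0 Gy. KOSC-2 libraries had 7.21 and 5.79 at 8 Gy and 6.92 and 5.91 at 0 Gy. The region was 1 peak in 5 libraries and split into 2 peaks in HSC-3 0 Gy replicate 2, KOSC-2 8 Gy replicate 2 and KOSC-2 0 Gy replicate 2.

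At the low end of the widened CDKN2A interval the calls of the lines differed. Only 2 HSC-3 libraries called the region 21964849 to 21965899, whereas each of the 4 KOSC-2 libraries did. The region lies below 21.97 Mb and counts only through the widening. For this pattern no share of all merged regions was computed, so it is no result about the locus. In HSC-3 the region's fold was 4.23 in 8 Gy replicate 1 and 4.68 in 0 Gy replicate 1. In KOSC-2 the fold was 8.74 and 7.64 at 8 Gy and 5.24 and 9.57 at 0 Gy. As for MTAP, these levels are not compared between libraries. The summits of the HSC-3 peaks, at 21965592 and 21965602, and those of the tallest KOSC-2 peaks, at 21965095 to 21965643, spread over 548 bp, so the peaks of the region are not all at 1 site. Within their own lists, the 2 HSC-3 peaks stood at percentiles 5.89 (8 Gy) and 3.03 (0 Gy) of their lists, against 28.1 to 71.0 for the KOSC-2 peaks. The remaining CDKN2A region, 21987268 to 21987567, was called in HSC-3 8 Gy replicate 2 only.

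CDKN2B, given as 22 to 22.01 Mb, had 2 regions, the border region above and 22008576 to 22009689 at its high end, and every library of both lines called both. The second was the strongest of the gene regions. Its fold was 10.8 and 11.3 in HSC-3 at 8 Gy and 9.48 and 11.4 at 0 Gy. In KOSC-2 it was 12.5 and 13.4 at 8 Gy and 10.4 and 14.4 at 0 Gy. It ranked at percentiles 96.1 to 98.2 of the HSC-3 lists and 89.5 to 97.4 of the KOSC-2 lists, and its summits in the 8 libraries fell within 39 bp of each other.

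**Figure D2:**
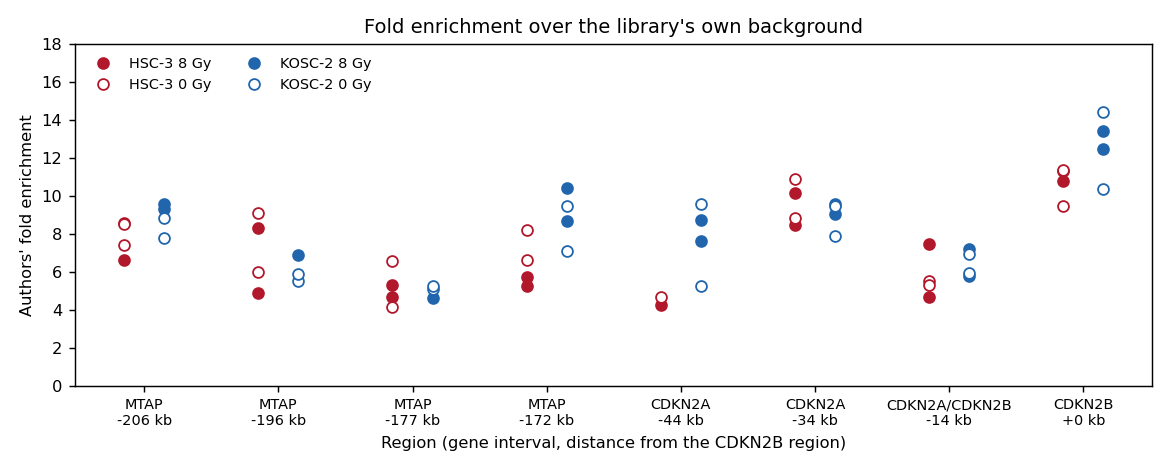
Fold enrichment deposited by the authors (y axis, relative to each library's own background) for the 8 regions of the gene intervals that at least 5 libraries called, with filled points for 8 Gy and open points for 0 Gy. Both lines have values in every region. The region just below CDKN2A, counted only through the widening, has 2 HSC-3 points, at 4.23 and 4.68, and 4 KOSC-2 points between 5.24 and 9.57.

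Outside the gene intervals the window held 47 regions, 13 of them called in all 8 libraries. Below MTAP these were 21559139 to 21560618, 21576074 to 21577059, 21591510 to 21592128, 21616030 to 21616705, 21677454 to 21678321, 21684693 to 21685528 and 21711444 to 21711957. Above CDKN2B they were 22052397 to 22053052, 22084390 to 22085565, 22102769 to 22103730, 22158275 to 22159440, 22211591 to 22212176 and 22446525 to 22447653. In the RefSeq order IFNE, an interferon gene, is the nearest protein-coding gene before MTAP and DMRTA1, a transcription factor gene of the doublesex family, the nearest after CDKN2B. No region outside the gene intervals was placed in a gene, exon or intron, as no annotation of hg19 was used here.

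The longest stretch without a peak in any of the 4 libraries of a line lay at the same place in both lines, the high end of the window. In HSC-3 it ran from 22470311 to the window's end, 129.7 kb, and in KOSC-2 from 22447654, 152.3 kb. The HSC-3 stretch is shorter through 1 peak, at 22470003 to 22470310, called in HSC-3 8 Gy replicate 2 alone, and it was 152.4 kb without that library. Followed past the window's end, the stretches were 213.4 kb in HSC-3 and 235.2 kb in KOSC-2. The HSC-3 stretch is overlapped by 4 KOSC-2 peaks, none inside the window and 3 of them in regions without an HSC-3 call, and the KOSC-2 stretch by the 1 HSC-3 peak already given. The next longest HSC-3 stretch, 135.4 kb from 21392641 to 21528014, begins in the left flank and is overlapped by 5 KOSC-2 peaks, 3 of them in regions without an HSC-3 call. The next longest KOSC-2 stretch, 84.9 kb from 22257592 to 22342502, is overlapped by 5 HSC-3 peaks, 1 of them in a region without a KOSC-2 call. Of 2743 windows of the same size, 86.5% held an HSC-3 stretch at least as long as that in the locus, and 72.1% a KOSC-2 stretch at least as long, so the locus is less interrupted than most windows in both lines.

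Between MTAP and CDKN2A, HSC-3 had no peak from 21874191 to 21965395 (91.2 kb), a stretch that 5 KOSC-2 peaks overlap. KOSC-2 had its own empty stretch from 21854940 to 21919567 (64.6 kb), which ended at a peak of KOSC-2 0 Gy replicate 2 alone, at 21919568 to 21919925. Of the 5 HSC-3 peaks that overlap it, 3 lie in regions without a KOSC-2 call, and the other 2 belong to the region 21854318 to 21855048 at its edge, which KOSC-2 8 Gy replicate 1 also called. The other 4 KOSC-2 peaks in the HSC-3 stretch belong to the region 21964849 to 21965899, which 2 HSC-3 libraries also called a little further along. Both stretches ended before 21.97 Mb, outside CDKN2A and CDKN2B as the rule gives them.

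In the flanks of equal size, the longest stretch in the left one, 20400000 to 21500000, was 184.7 kb in HSC-3 and 98.7 kb in KOSC-2. That HSC-3 stretch, from 20756312 to 20940985, is overlapped by 5 KOSC-2 peaks, 4 of them in regions without an HSC-3 call. In the right flank, 22600000 to 23700000, the longest stretches were 439.1 kb in HSC-3 and 808.1 kb in KOSC-2. That HSC-3 stretch is overlapped by 2 KOSC-2 peaks, none of them in a region without an HSC-3 call. The KOSC-2 stretch there is overlapped by 2 HSC-3 peaks, 1 of them in a region without a KOSC-2 call. The stretch that starts in the window, followed past its end, was longer than that of the left flank and shorter than that of the right in both lines. Cut at the window's end, it was 129.7 kb in HSC-3, shorter than that of the left flank. In KOSC-2 the cut stretch was 152.3 kb, still longer than that of the left flank. The flanks held 34 and 14 merged regions against 62 in the window.

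Tiles of 100 kb were counted next. Tiles with no peak in the 4 HSC-3 libraries and at least 4 in KOSC-2 numbered 0 of 11 in the window, against 2.53% of 30315 tiles over chromosomes 1 to 22 and X. The reverse, empty in KOSC-2 with at least 4 HSC-3 peaks, was also 0 of 11, against 0.429% of all tiles. With 11 tiles, a count of 0 is near both background shares and is no result about the locus. The last tile of the window, 22500001 to 22600000, was empty in both lines. In the tile that holds most of MTAP, 21800001 to 21900000, the HSC-3 libraries had 27 peaks in all and the KOSC-2 libraries 17, the largest gap of the window. In the tile with CDKN2A, 21900001 to 22000000, they had 12 and 16. HSC-3 had more peaks in 6 of the 11 tiles, fewer in 3 and as many in 2. In the left flank it had fewer in 10 and as many in 1, and in the right flank more in 3, fewer in 1 and as many in 7. These are sums over lists of unequal length, and the short lists are both of HSC-3. No share of all tiles was computed for which line has more peaks, so these comparisons are no result about the locus.

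**Figure D3:**
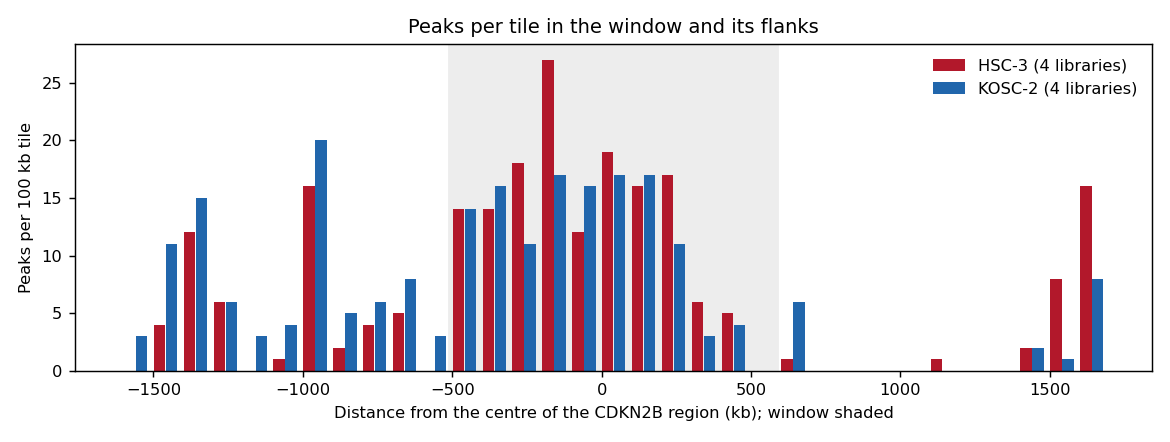
Peaks per 100 kb tile, summed over the 4 libraries of HSC-3 (left bar of each pair) and of KOSC-2 (right bar), against distance in kb from the centre of the CDKN2B region, with the window shaded. The shaded tiles hold peaks of both lines except the last, which is empty in both, and the right flank has 6 tiles empty in both lines and most of its peaks in its last tiles.

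Relative to the length of its list, the locus was more represented in HSC-3. The window held 0.124% and 0.109% of the peaks of the HSC-3 libraries at 8 Gy and 0.103% and 0.128% at 0 Gy. KOSC-2 libraries had 0.0619% and 0.0778% at 8 Gy and 0.0785% and 0.0682% at 0 Gy. In KOSC-2 the share fell steadily from the shortest list to the longest. In HSC-3 the 2 short lists had the higher shares, so a share does not fully take out list length. All 4 HSC-3 values exceeded all 4 KOSC-2 values, with means of 0.116% ± 0.0121 in HSC-3 and 0.0716% ± 0.00799 in KOSC-2 (SD, n = 4 each; difference 0.0444 percentage points, exact two-sided permutation p = 0.0286, which is the lowest value possible for 4 against 4 libraries; Benjamini-Hochberg adjusted p = 0.0429 over 3 measures of the window). Such a separation, HSC-3 above KOSC-2 without overlap, was seen in 12.5% of the 2743 windows of the same size, so the separation is not particular to the locus. A difference at least as large was found in 4 of these windows, among which peak-rich windows have more room to differ. As a share of the peaks on chromosome 9, a denominator added once the data had been seen, the difference was 1.03 percentage points (exact p = 0.0286).

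Measured in bases, the window made up 0.131% ± 0.0167 of the sequence covered by HSC-3 peaks and 0.0804% ± 0.00590 of that covered by KOSC-2 peaks (SD, n = 4 each; exact two-sided permutation p = 0.0286, adjusted p = 0.0429). The values did not overlap, as in 16.3% of all windows of this size. Against its own flanks the difference did not pass the test: the window held 65.9% ± 4.62 of the peaks of window and flanks together in HSC-3 and 56.5% ± 8.47 in KOSC-2 (SD, n = 4 each; difference 9.41 percentage points, exact permutation p = 0.143, adjusted p = 0.143). The HSC-3 libraries ranged from 59.7 to 69.8% and the KOSC-2 libraries from 47.8 to 66.7%, with overlap, and with lists of equal length the difference was 2.92 percentage points (exact permutation p = 0.543). Leaving out the 3 libraries of lowest enrichment (HSC-3 8 Gy replicate 1, HSC-3 0 Gy replicate 2 and KOSC-2 0 Gy replicate 1) left 2 HSC-3 against 3 KOSC-2 libraries and a difference in share of peaks of 0.0365 percentage points (exact permutation p = 0.1, the smallest this number allows). This setting was not planned beforehand.

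**Figure D4:**
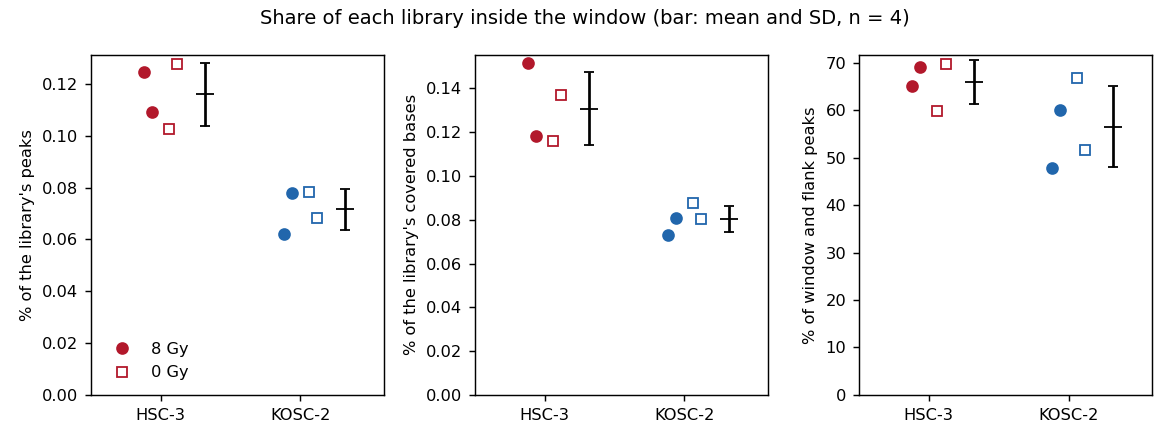
Share of each library inside the window (y axes, in %) for HSC-3 and KOSC-2, as share of peaks, of covered bases and of the peaks of window and flanks; filled circles are 8 Gy, open squares 0 Gy, and bars the mean and SD over 4 libraries. The lines are apart in the first and second panels and overlap in the third.

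The design could not show an effect of irradiation on the share of peaks at the threshold of 0.05, and the values are given as a description. The share of peaks in the window was 0.117% ± 0.0109 at 8 Gy and 0.115% ± 0.0178 at 0 Gy in HSC-3, and 0.0699% ± 0.0113 at 8 Gy and 0.0733% ± 0.00728 at 0 Gy in KOSC-2 (SD, n = 2 each). Averaged over the lines the difference was -0.000924 percentage points (exact two-sided permutation test with doses exchanged within lines, p = 0.889, where the smallest possible is 0.0556). Regions called in both 8 Gy libraries and neither 0 Gy library numbered 0 of 62 in HSC-3 (0.680% of all regions) and 3 of 62 in KOSC-2, which is 4.84% against 3.51% of all regions. The 3 were 21789484 to 21789808, 22216867 to 22217273 and 22395608 to 22396390, none in a gene interval. Regions with the reverse pattern numbered 0 in HSC-3 (0.957% of all regions) and 0 in KOSC-2 (0.870%).

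The local background of a peak, the reads in its surroundings against the lowest background of the same library, was read from the deposited fold and p-value. For peaks of the window its median was 2.10 and 3.77 in HSC-3 at 8 Gy and 3.34 and 2.95 at 0 Gy. In KOSC-2 it was 2.61 and 2.64 at 8 Gy and 1.67 and 2.61 at 0 Gy. The medians over whole lists were 2.07 to 2.85, so 3 HSC-3 libraries lay above that range, and the lines overlapped. For the peaks in the CDKN2B interval it was 4.35 and 11.7 in HSC-3 at 8 Gy and 10.4 and 6.42 at 0 Gy, and in KOSC-2 5.21 and 5.52 at 8 Gy and 2.83 and 5.57 at 0 Gy. There 3 HSC-3 libraries were above all KOSC-2 libraries, and the other, HSC-3 8 Gy replicate 1, has the lowest enrichment of the 8. In the MTAP interval the lines overlapped, with medians of 3.88 and 5.99 in HSC-3 at 8 Gy and 4.37 and 5.26 at 0 Gy, and of 4.27 and 3.15 in KOSC-2 at 8 Gy and 2.45 and 5.48 at 0 Gy. In the CDKN2A interval they overlapped through 1 HSC-3 library, with medians of 3.57 and 8.07 in HSC-3 at 8 Gy and 7.41 and 5.88 at 0 Gy, and of 3.59 and 3.48 in KOSC-2 at 8 Gy and 1.96 and 3.31 at 0 Gy. This background includes the reads of the peaks themselves and differs with the enrichment of a library, and copy number cannot be told apart from openness in it. The part that enrichment has in these values was not tested.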

How the data were processed

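ATAC-seq peak lists of 8 libraries were used, 2 for each of HSC-3 and KOSC-2 at 8 and 0 Gy, grouped by the labels. Per the submitters' processing notes, the tools were FastQC 0.11.7, Bowtie2 2.3.4.2, SAMtools 1.9, deepTools and MACS2 2.2.6, with build hg19; for parameters, duplicate handling and any Tn5 shift of reads, nothing is given in the sources used here. The authors deposited 1 list per library, with no pooling stated, giving for each peak a score (not used), a ratio (fold enrichment at the summit over the library's own background), a −log10 p-value, a −log10 q-value and the summit offset.

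The locus and its genes, with positions rounded to 10 kb, were chosen with earlier results of these data known. Peaks on chromosomes 1 to 22 and X were merged at 1 shared bp. Pileup and background were solved from fold and −log10 p, since the fold is (pileup + 1) / (background + 1); pileups from 2 to 400 gave every peak within 0.0001. Backgrounds of 300 bp fragments were scaled to 10 kb. Percentiles rank −log10 p within a list. Windows and tiles over the genome start at each chromosome's first base and end at its last peak. The lines (4 against 4 libraries) were tested by exact two-sided permutation, and doses by exchange within lines, with a threshold of 0.05. Regions described in full are those in the gene intervals, those called in 8 of 8 libraries, and those that bound the longest stretches; any other region named was picked with its values in view. The settings varied were the number of libraries that makes a call (3 of 4), 50% coverage for a shared region, smaller flanks, list length (the best 22504 peaks each), a minimum −log10 q of 5, pairing by replicate number, and leaving libraries out singly. Not planned were the share of chromosome 9 peaks, leaving out the 3 libraries of lowest enrichment, crossed HSC-3 numbers and settings varied for tiles. Pathway genes and cell type markers were not analysed here, as they need gene positions of hg19; promoter sequences are RefSeq's (GRCh38.p14). The functions were tested on simulated lists. Computations ran in Python 3.11.15 with scipy 1.17.1, numpy 2.4.6 and pandas 2.3.3, and figures were drawn with matplotlib 3.10.9.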

Additional observations from a re-analysis of the deposited data

Results flagged for a closer look

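The longest stretch without a peak inside the window was 129.7 kb in HSC-3 8 Gy replicate 2, against 152.4 to 152.7 kb in the other HSC-3 libraries, a value far from the rest of its line. It is set by the single peak at 22470003 to 22470310. Among 10 sets of 4 library values examined in this way 1 had such a value. The other HSC-3 stretches all begin at the same region, 22446525 to 22447653, so their values differ little. No rate expected by chance is given for this measure.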

How the results depend on the processing

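The higher share of peaks and of covered bases in HSC-3 kept its direction and its side of 0.05 with a −log10 q of at least 5, with lists of equal length (differences of 0.0389 percentage points in peaks and 0.0471 in bases) and without any 1 library (0.0404 to 0.0488 in peaks and 0.0435 to 0.0553 in bases). It lost the threshold in a replicate block of libraries paired by dose and number, with differences of 0.0444 and 0.0504 and an exact p of 0.125, the smallest that 4 pairs allow, and without the 3 libraries of lowest enrichment (0.0365 and 0.0393, exact permutation p = 0.1, the smallest possible). The numbers share no more than a label: calls of same-numbered libraries deviated together with correlations of -0.154 to 0.0332. The -0.154 was found between the doses of HSC-3, where the short list is replicate 1 at 8 Gy and replicate 2 at 0 Gy. With the HSC-3 numbers crossed, a setting not planned beforehand, the comparison of doses gave an exact p of 0.875. The smallest possible is 0.125, so this comparison could not pass. The share of window and flanks together passed with flanks of 550 kb (difference 11.2, exact p = 0.0286), was 2.92 with lists of equal length (exact p = 0.543) and ranged from 6.49 to 12.8 without single libraries. The difference by dose turned positive without HSC-3 8 Gy replicate 2 (0.00291), HSC-3 0 Gy replicate 2 (0.00536), KOSC-2 8 Gy replicate 1 (0.00306) and KOSC-2 0 Gy replicate 1 (0.00165), and ranged from -0.00721 to 0.00536. The HSC-3 stretch was 152.4 kb with lists of equal length and 129.7 to 152.4 kb without single libraries, and the KOSC-2 stretch 152.3 to 152.4 kb. Regions of all HSC-3 and no KOSC-2 libraries numbered 2 when 3 of 4 libraries sufficed, 1 with lists of equal length, 0 to 1 without single libraries (1 without HSC-3 8 Gy replicate 1 or HSC-3 0 Gy replicate 2) and 7 without the 3 libraries of lowest enrichment, where 2 HSC-3 libraries suffice. The reverse numbered 1 at a −log10 q of at least 5 and 0 otherwise. For these varied settings no share of all merged regions was computed. The counts cannot be set against the shares of the main setting and are no result about the locus. Tiles empty in 1 line stayed at 0 at a −log10 q of at least 5 and with lists of equal length, chosen after seeing the data. Depth limits these lists to sites of at least 5 to 9 reads, and peak lists do not give copy number.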
